A study of Mus musculus with 29 samples.

Results

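The 9 genes described here belong to the change of fuel from glucose to fatty acids: Pdk4, Angptl4, Lpl, Lpin1, Cpt1a, Acot1, Acot2, Acadl and Cd36. They were chosen by name, and every probe whose accession matched one of them was read, which gave 13 probes of the 41174 on the array. All 9 genes, of 15350 tested, were well above background on all 29 arrays, so none was lost to the filter on dim probes. The arrays held total RNA of lung from C57BL/6 mice 6 to 8 weeks old, as 1-colour Agilent hybridisations. Mice lacking Klf15 (Klf15-/-, called knockout) or wild type were given dexamethasone at 2.5 mg/kg or saline, and lungs were taken at 8 or 4 h. The 8 groups were knockout with dexamethasone at 8 h (4 arrays), knockout with saline at 8 h (4), wild type with dexamethasone at 8 h (3), wild type with saline at 8 h (3), knockout with dexamethasone at 4 h (4), knockout with saline at 4 h (3), wild type with dexamethasone at 4 h (4) and wild type with saline at 4 h (4). The labels call the samples biological replicates and do not name the animals behind each array, so the p-values measure the spread between these arrays, which may be technical. How the Klf15 allele was made, and whether it is lacking in all cells, is not stated in the sources used here.

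Dexamethasone is a synthetic glucocorticoid that acts through the glucocorticoid receptor (Nr3c1), and Klf15 is a Krueppel-like transcription factor that the receptor induces. In fasting or under glucocorticoids, tissues spare glucose: Pdk4 phosphorylates and shuts down pyruvate dehydrogenase, while lipases free fatty acids that are taken up, carried into mitochondria and oxidised. Lpl frees fatty acids from circulating triglyceride at the capillary wall, Angptl4 inhibits Lpl, and Cd36 takes fatty acids into cells. Cpt1a moves them into mitochondria as acylcarnitines, Acadl begins the oxidation of long-chain acyl-CoA, Acot1 (in the cytosol) and Acot2 (in mitochondria) cleave acyl-CoA to free fatty acid, and Lpin1 makes diacylglycerol and also acts as a coactivator of fatty acid oxidation genes. In the lung, fatty acids also feed the making of surfactant lipid by alveolar type 2 cells.

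RefSeq promoters (GRCm38.p6, 250 bases before to 50 after the gene's start, on the gene's strand) matched 7 of the 9 genes, the exceptions being Angptl4 and Lpl. Shown are those of the 3 matched genes that dexamethasone raised in both genotypes at both times (Pdk4, Lpin1, Acadl) and of the 2 acyl-CoA thioesterases, the genes lower in knockout lungs with dexamethasone at 8 h that have a close paralogue beside them. Capitals mark matches, on either strand, to ACANNNTGT (core of the glucocorticoid receptor element), CCACCC (Krueppel-like factor box), AGGTCA (the hexamer that the element of PPAR with RXR repeats) or TGTTTAC (FoxO element).
Pdk4 (chr6:5496229-5496528, minus strand): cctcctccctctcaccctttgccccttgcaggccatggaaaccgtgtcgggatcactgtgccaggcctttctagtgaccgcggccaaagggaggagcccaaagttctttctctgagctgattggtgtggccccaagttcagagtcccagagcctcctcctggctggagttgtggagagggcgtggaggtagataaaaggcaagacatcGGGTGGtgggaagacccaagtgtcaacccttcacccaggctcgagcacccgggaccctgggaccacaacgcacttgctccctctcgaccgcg
Lpin1 (chr12:16610917-16611216, minus strand): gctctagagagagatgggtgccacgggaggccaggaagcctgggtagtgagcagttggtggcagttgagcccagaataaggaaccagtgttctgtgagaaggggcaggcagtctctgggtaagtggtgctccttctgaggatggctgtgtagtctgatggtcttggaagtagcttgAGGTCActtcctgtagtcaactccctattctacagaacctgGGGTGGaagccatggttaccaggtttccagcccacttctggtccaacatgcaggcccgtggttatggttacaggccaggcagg
Acadl (chr1:66863260-66863559, minus strand): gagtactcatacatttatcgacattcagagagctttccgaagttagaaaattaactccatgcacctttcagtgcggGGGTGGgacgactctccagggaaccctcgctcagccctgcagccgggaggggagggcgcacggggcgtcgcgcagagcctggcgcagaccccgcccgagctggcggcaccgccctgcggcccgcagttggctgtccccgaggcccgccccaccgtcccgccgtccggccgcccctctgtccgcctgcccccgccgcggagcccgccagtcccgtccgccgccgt
Acot1 (chr12:84009252-84009551, plus strand): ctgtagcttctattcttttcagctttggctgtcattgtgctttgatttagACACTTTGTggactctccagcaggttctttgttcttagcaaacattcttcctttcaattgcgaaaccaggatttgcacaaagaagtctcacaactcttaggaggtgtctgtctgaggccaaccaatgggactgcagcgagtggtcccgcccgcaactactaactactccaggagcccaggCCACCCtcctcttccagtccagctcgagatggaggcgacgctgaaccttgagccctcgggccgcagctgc
Acot2 (chr12:83987611-83987910, plus strand): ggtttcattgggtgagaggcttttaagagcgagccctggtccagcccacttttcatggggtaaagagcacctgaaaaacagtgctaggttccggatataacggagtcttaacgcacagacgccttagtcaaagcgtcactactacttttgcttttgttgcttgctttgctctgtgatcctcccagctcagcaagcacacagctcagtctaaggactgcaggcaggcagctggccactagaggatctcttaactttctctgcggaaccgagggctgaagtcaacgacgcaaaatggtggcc

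The Krueppel-like factor box was present in 4 of the 7 promoters (Pdk4, Lpin1, Acot1, Acadl), and 31.5% of all 32851 promoters of this length held it. AGGTCA was present in 3 of the 7 (Lpin1, Cpt1a, Cd36), against 16.3% of all promoters. The receptor core was found in 1, that of Acot1 (6.85% of all promoters), and TGTTTAC (3.65% of all) was found in none of these windows. The Acot2 promoter held no match to any of the 4 motifs. These matches describe letters in a short window, not binding.

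The targeted gene was read first. Klf15 signal lay between -0.89 and 1.37 on knockout arrays, against 1.95 to 4.29 on wild-type arrays, in log2 units relative to the 75th percentile of each array, the scale of every signal below. Its mean difference, knockout minus wild type, was -2.96 ± 0.11 (SE). Klf15 signal on knockout arrays still rose with dexamethasone, by 0.92 at 8 h and 1.92 at 4 h, against 0.79 at 8 h and 1.93 at 4 h in wild type; whether the probe lies in the deleted part is not known. Arrays of a group correlated with r between 0.972 and 0.991. The 7 knockout saline arrays stood apart in 1 respect: for 2546 genes that have both a brighter and a dimmer probe, their mean log2 ratio of bright to dim, centred on all arrays, was -0.368 to -0.116, against -0.0836 to 0.286 on the other 22 arrays. All 10 lung epithelial markers (such as Sftpc, Sftpb and Scgb1a1) were kept by the filter. It kept 15350 of 17178 genes with a matched probe, and all 10 heart muscle markers, so this cannot test the lung label. Among the dexamethasone-treated wild-type lungs of 8 h, replicate 54 was the highest of its 3 arrays for 7 of the 9 genes, so values that rest on it are given below without it.

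Dexamethasone raised 6 of the 9 genes in knockout lungs at 8 h and 5 at 4 h, and 7 in wild-type lungs at each time, and it lowered none of them by the test used (limma, Benjamini-Hochberg adjusted p under 0.05 over all genes tested). Pdk4, Angptl4, Lpl, Lpin1 and Acadl rose in both genotypes at both times. Acot1 rose in 3 of the 4 comparisons and Acot2 in the 2 wild-type comparisons, while Cpt1a and Cd36 were called in none. Of all genes tested, 24.9% were called higher in knockout lungs at 8 h, 24.7% in knockout lungs at 4 h, 9.22% in wild-type lungs at 8 h and 14.4% in wild-type lungs at 4 h. The shares called lower were 17.7% and 17.8% in knockout (8 and 4 h) and 14.3% and 22.2% in wild type (8 and 4 h). The median log2 difference of the 9 genes was 0.83 and 0.41 in knockout (8 and 4 h) and 0.81 and 0.64 in wild type (8 and 4 h), against medians of 0.10, 0.05, -0.06 and -0.03 over all genes in the same comparisons. In bulk lung, fewer cells of a type and less RNA per cell cannot be told apart, for these and all later values.

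**Figure D1:**
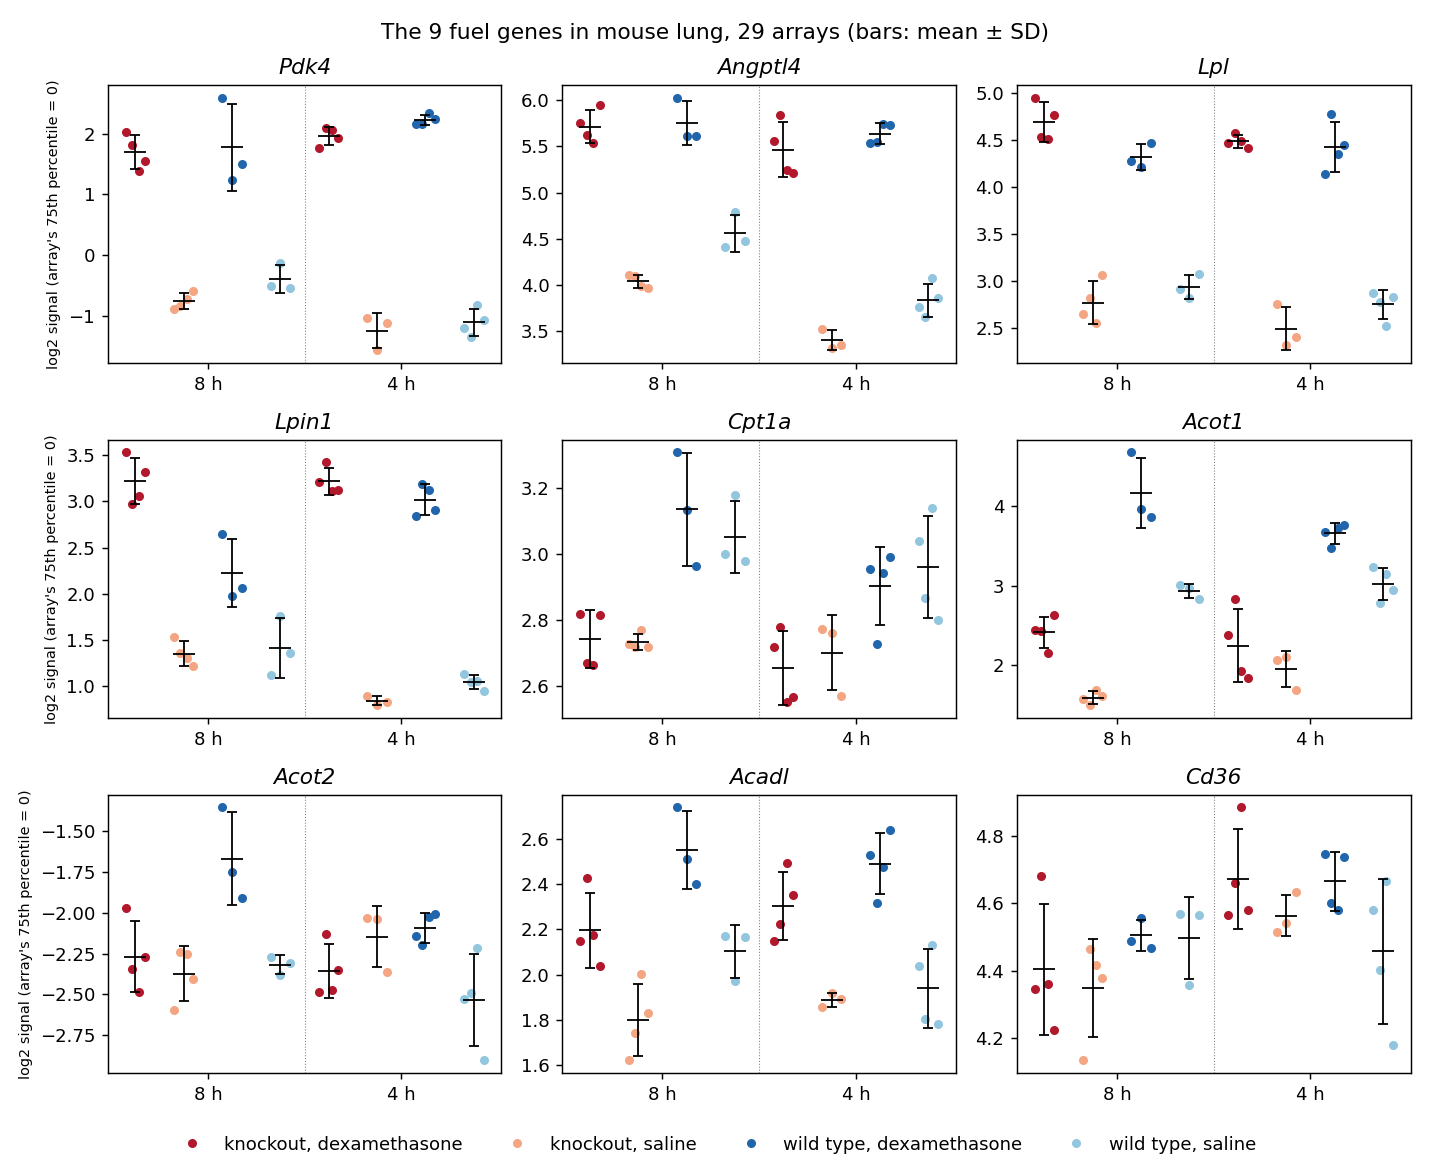
Log2 signal (y axis, the array's 75th percentile being 0) of each of the 9 genes on every array, with 1 point per array and the mean ± SD of each group in black, at 8 h (left) and 4 h (right) in each panel. Pdk4, Angptl4, Lpl and Lpin1 separate dexamethasone from saline in both genotypes. Acot1 separates knockout from wild type of the same treatment and time, and Cd36 stays between 4.13 and 4.89 on all 29 arrays.

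**Figure D2:**
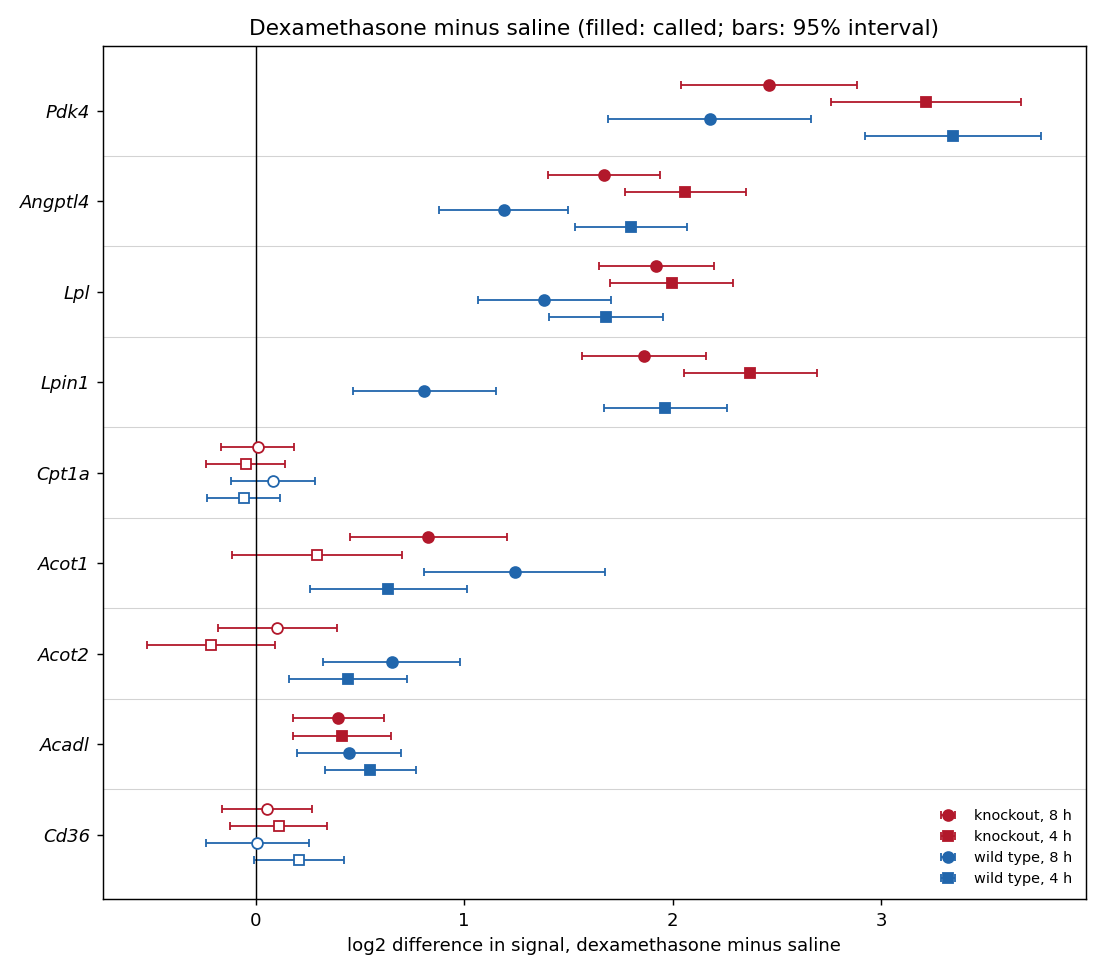
Log2 difference in signal, dexamethasone minus saline (x axis), for each gene in knockout and wild type at 8 and 4 h, with 95% intervals; filled symbols passed the adjusted threshold of 0.05. Lpin1 has the widest gap between genotypes at 8 h, 1.86 in knockout and 0.81 in wild type.

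Pdk4, the kinase that turns off pyruvate dehydrogenase, gave the largest dexamethasone differences of the 9 genes. At 8 h its signal was 2.03, 1.82, 1.39 and 1.56 with dexamethasone in knockout lungs, against -0.89, -0.84, -0.73 and -0.60 with saline. In wild-type lungs at 8 h it was 2.60, 1.24 and 1.497 with dexamethasone, against -0.51, -0.14 and -0.54 with saline. No treated array overlapped a saline array. At 4 h the knockout values were 1.77, 2.10, 2.06 and 1.94 with dexamethasone, against -1.05, -1.57 and -1.12 with saline. The wild-type values at 4 h were 2.16, 2.17, 2.34 and 2.25 with dexamethasone, against -1.21, -1.36, -0.82 and -1.07 with saline. The 4 differences were 2.46 ± 0.20 (SE; 5.52-fold, adjusted p = 2.46e-09) in knockout at 8 h, 3.21 ± 0.22 (9.28-fold, adjusted p = 7.95e-11) in knockout at 4 h, 2.18 ± 0.24 (4.52-fold, adjusted p = 5.93e-07) in wild type at 8 h and 3.34 ± 0.20 (10.2-fold, adjusted p = 1.1e-11) in wild type at 4 h.

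The response of Pdk4 did not differ between genotypes by the test: the knockout response minus the wild-type response was 0.29 (95% interval -0.36 to 0.93) at 8 h and -0.13 (-0.75 to 0.49) at 4 h. Leaving out single arrays moved these to between 0.02 (without wild-type dexamethasone replicate 55) and 0.70 (without replicate 54, adjusted p = 0.0798) at 8 h, and to between -0.29 and -0.03 at 4 h. No genotype difference in its level was called in either treatment, with knockout minus wild type between -0.37 in saline at 8 h (adjusted p = 0.259) and -0.08 with dexamethasone at 8 h (adjusted p = 0.872). The treated difference at 8 h was 0.33 (adjusted p = 0.29) without wild-type replicate 54 and -0.35 (adjusted p = 0.411) without replicate 55, so its direction rests on single arrays. In wild type the dexamethasone difference was 1.17 log2 units smaller at 8 h than at 4 h (-1.17, interval -1.81 to -0.52, adjusted p = 0.025), and in knockout it was -0.75 (adjusted p = 0.243). That wild-type call rested on single arrays: the value was -1.04 (adjusted p = 0.0776) without saline replicate 38 at 8 h, -0.90 (0.113) without dexamethasone replicate 55 at 8 h and -1.02 (0.0809) without dexamethasone replicate 56 at 8 h. From 4 to 8 h the wild-type mean rose from -1.11 to -0.40 with saline and fell from 2.23 to 1.78 with dexamethasone.

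Lpl, which frees fatty acids from lipoprotein triglyceride, and Angptl4, its secreted inhibitor, rose side by side. At 8 h Lpl signal was 4.95, 4.53, 4.51 and 4.77 with dexamethasone in knockout lungs, against 2.65, 2.81, 2.55 and 3.06 with saline. In wild type at 8 h it was 4.27, 4.21 and 4.47 with dexamethasone, against 2.92, 2.82 and 3.07 with saline. The groups did not overlap in either genotype. At 4 h Lpl ranged from 4.41 to 4.58 with dexamethasone in knockout lungs, against 2.32 to 2.76 with saline, and from 4.14 to 4.78 with dexamethasone in wild type, against 2.52 to 2.87 with saline. The differences were 1.92 ± 0.13 (SE, adjusted p = 1.49e-10) in knockout at 8 h, 1.99 ± 0.14 (1.73e-10) in knockout at 4 h, 1.38 ± 0.15 (7.68e-07) in wild type at 8 h and 1.68 ± 0.13 (8.11e-10) in wild type at 4 h. A second Lpl probe gave smaller differences in these 4 comparisons (1.11 and 1.19 in knockout at 8 and 4 h, 0.985 and 0.996 in wild type at 8 and 4 h), all called over the 33931 probes kept. Lpl was called in no genotype comparison, although at 8 h with dexamethasone all knockout arrays lay above all wild-type arrays (0.37, interval 0.08 to 0.67, adjusted p = 0.12).

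Angptl4 signal at 8 h was 5.75, 5.62, 5.54 and 5.94 with dexamethasone in knockout lungs, against 4.11, 4.09, 3.99 and 3.97 with saline. In wild type at 8 h it was 6.03, 5.61 and 5.61 with dexamethasone, against 4.41, 4.79 and 4.48 with saline. Treated arrays of the 2 genotypes overlapped, and the saline arrays of knockout lungs all lay below those of wild type. Angptl4 rose by 1.67 ± 0.13 (SE) and 2.06 ± 0.14 in knockout at 8 and 4 h, and by 1.19 ± 0.15 and 1.80 ± 0.13 in wild type at 8 and 4 h. The largest adjusted p of these 4 was 3.93e-06. In saline, knockout minus wild type was -0.52 at 8 h (interval -0.81 to -0.23, adjusted p = 0.0184) and -0.43 at 4 h (-0.72 to -0.14, adjusted p = 0.0266). Both saline calls were lost with the bright-to-dim ratio as a covariate (-0.32, adjusted p = 0.118, at 8 h and -0.01, adjusted p = 0.991, at 4 h) and with quantile normalization (-0.35, adjusted p = 0.158, and -0.29, adjusted p = 0.218). That ratio set the 7 knockout saline arrays apart from the other 22. Here and below, a fit with it cannot tell a difference involving those arrays from their shift in ratio. The 8 h call was also lost without wild-type saline replicate 38 (-0.40, adjusted p = 0.0827), and the 4 h call without wild-type saline replicates 35 or 36 or knockout saline replicates 43 or 44 (-0.43 to -0.36). With dexamethasone the genotypes differed by -0.04 at 8 h and -0.17 at 4 h, neither of them called. The genotype difference of the dexamethasone response itself was 0.48 at 8 h (adjusted p = 0.139) and 0.26 at 4 h (adjusted p = 0.383).

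Cd36, the fatty acid translocase of capillaries and macrophages, was called in none of the 14 comparisons made with limma, and in none at an unadjusted p under 0.05 (0 of 14). Its group means ran from 4.35 ± 0.15 (SD, n = 4) in saline-treated knockout lungs at 8 h to 4.67 ± 0.15 (SD, n = 4) in dexamethasone-treated knockout lungs at 4 h. The dexamethasone differences were 0.06 (interval -0.16 to 0.27) and 0.11 (-0.12 to 0.34) in knockout at 8 and 4 h, and 0.01 (-0.24 to 0.26) and 0.21 (-0.01 to 0.42) in wild type at 8 and 4 h.

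Lpin1, the phosphatidate phosphatase and coactivator, was the gene whose response to dexamethasone was larger in knockout than in wild-type lungs. At 8 h its signal was 3.53, 2.97, 3.06 and 3.32 with dexamethasone in knockout lungs, against 1.54, 1.36, 1.31 and 1.22 with saline. In wild type at 8 h it was 2.64, 1.97 and 2.06 with dexamethasone, against 1.13, 1.77 and 1.36 with saline. All 4 treated knockout arrays lay above all 3 treated wild-type arrays, while the saline arrays of the 2 genotypes overlapped. At 4 h it was 3.21, 3.42, 3.11 and 3.12 with dexamethasone in knockout lungs, against 0.90, 0.80 and 0.83 with saline. In wild type at 4 h it was 2.84, 3.18, 3.13 and 2.91 with dexamethasone, against 1.13, 1.05, 1.06 and 0.95 with saline. Treated arrays of the 2 genotypes overlapped at this time.

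Lpin1 rose by 1.86 ± 0.14 (SE; adjusted p = 7.24e-10) and 2.37 ± 0.155 (3.53e-11) in knockout at 8 and 4 h, and by 0.81 ± 0.165 (0.000901) and 1.97 ± 0.14 (2.06e-10) in wild type at 8 and 4 h. The knockout response exceeded that of wild type by 1.06 at 8 h (interval 0.60 to 1.51, adjusted p = 0.0109) and by 0.41 at 4 h (-0.03 to 0.84, adjusted p = 0.195). It was the 1 member of 9 called higher in this comparison at 8 h, where 4.25% of all genes were called higher. Lpl (0.54, interval 0.12 to 0.96, adjusted p = 0.107) and Angptl4 (0.48, 0.07 to 0.89, adjusted p = 0.139) had the same sign there without a call. The median over all genes was 0.145. By the second Lpl probe the rise at 8 h was similar in the 2 genotypes. Its means with saline and dexamethasone were 2.49 and 3.60 in knockout, and 2.39 and 3.38 in wild type. The treated level of Lpin1 at 8 h was 0.99 higher in knockout than in wild type (1.99-fold, adjusted p = 0.000449). The other 2 Lpin1 probes gave 1.39 and 0.96 for that level and 1.45 and 0.99 for the difference of responses, all called. In wild type the response was smaller at 8 h than at 4 h by 1.16 (-1.16, interval -1.61 to -0.71, adjusted p = 0.0016), whereas in knockout the change was -0.51 (adjusted p = 0.267). Whether this change over time itself differed between genotypes was not tested.

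The 8 h difference of the Lpin1 responses was 0.92 (adjusted p = 0.0524) with the bright-to-dim ratio as a covariate and 1.06 (adjusted p = 0.0557) when the 4 groups concerned were fitted alone. The treated level at 8 h, fitted on its 2 groups alone, kept its size of 0.99 with an adjusted p of 0.123. The wild-type rise at 8 h, fitted likewise, was 0.81 with an adjusted p of 0.0991. Over the 29 fits that each left out 1 array, the difference of responses ran from 0.88 to 1.26 and the treated level from 0.87 to 1.20, both called in each. Adipocyte markers moved with treatment in the same lungs: 7 of the 9 measured were called higher with dexamethasone in knockout lungs at 8 h, against 24.9% of all genes. Their summed signal, on a linear scale with the 75th percentile at 1, was 23.4 to 54.2 there, against 8.52 to 9.94 in saline-treated knockout lungs at 8 h. It was 16.7 to 19.8 in treated wild-type lungs at 8 h, against 10.6 to 16.5 with saline. Of 10 heart muscle markers measured, 2 were called higher in knockout lungs at 8 h, which is near the 24.9% of all genes. The heart markers summed to 31.9 to 65.8 in treated knockout lungs at 8 h, against 5.79 to 34.9 with saline. In treated wild-type lungs at 8 h they summed to 8.32 to 32.5, against 7.05 to 38.3 with saline.

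On the 4 treated knockout arrays of 8 h, adipocyte sum and Lpin1 signal were 27.3 and 3.53, 54.2 and 2.97, 32.2 and 3.06, and 23.4 and 3.32. With the log2 adipocyte sum as a covariate, a fit added after the data were seen, the treated level of Lpin1 at 8 h was 0.96 higher in knockout (adjusted p = 0.0103) and the difference of responses was 1.002 (adjusted p = 0.2). With the heart sum these values were 0.91 (adjusted p = 0.00323) and 1.01 (adjusted p = 0.0161). The knockout response at 8 h with the adipocyte sum as a covariate was 2.09 for Pdk4 (adjusted p = 0.000894), 1.48 for Angptl4 (0.000349) and 1.80 for Lpl (6.14e-05). In the same fit the calls of Acadl (0.45, adjusted p = 0.157) and Acot1 (0.58, 0.323) were lost. At 8 h, adipocyte sums of treated and saline lungs did not overlap in either genotype. Those of knockout and wild-type lungs of the same treatment did not overlap either. The adipocyte covariate therefore cannot be told apart from treatment or from genotype at 8 h. The part of adipocyte or heart tissue in these values was not tested.

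**Figure D3:**
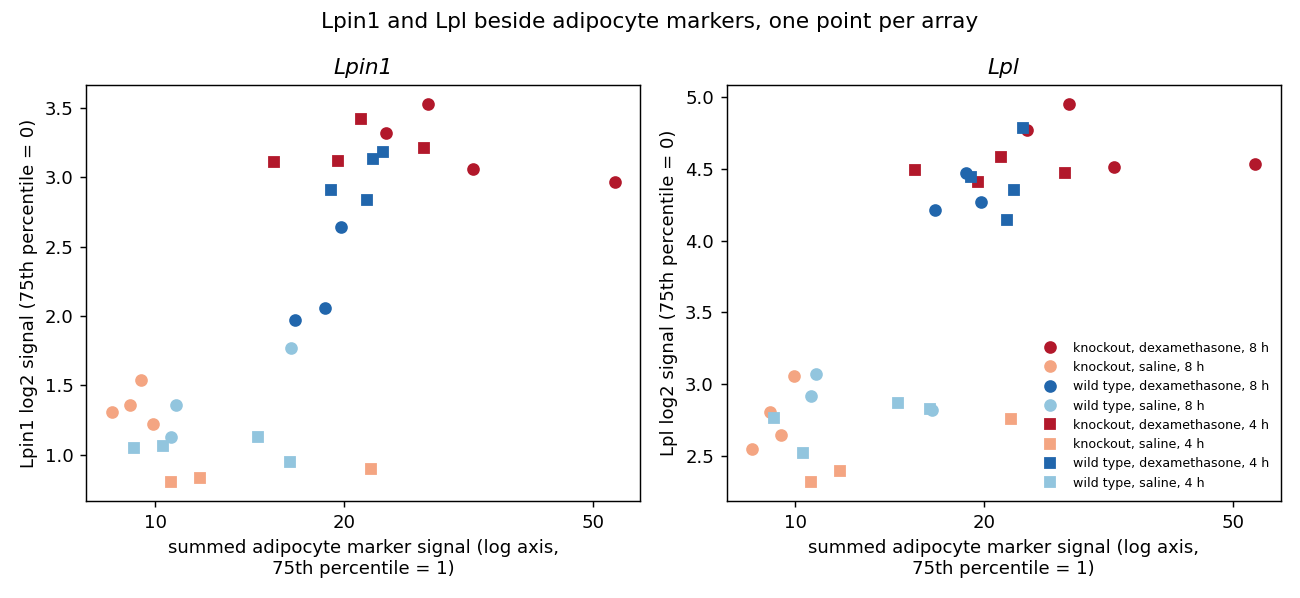
Log2 signal of Lpin1 (left) and Lpl (right) against the summed linear signal of 9 adipocyte markers (x axis, log scale, the array's 75th percentile being 1), 1 point per array, coloured by genotype and treatment (circles 8 h, squares 4 h). The 4 treated knockout arrays of 8 h have marker sums of 27.3, 54.2, 32.2 and 23.4. In the same order Lpin1 is 3.53, 2.97, 3.06 and 3.32, and Lpl is 4.95, 4.53, 4.51 and 4.77.

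Acot1, the cytosolic acyl-CoA thioesterase, was the gene with the largest genotype difference of the 9. At 8 h its signal was 2.44, 2.42, 2.15 and 2.62 with dexamethasone in knockout lungs, against 4.68, 3.97 and 3.87 with dexamethasone in wild type. With saline at 8 h it was 1.56, 1.49, 1.68 and 1.60 in knockout lungs, against 3.003, 2.97 and 2.83 in wild type. At 4 h it was 2.37, 2.83, 1.92 and 1.84 with dexamethasone in knockout lungs, against 3.68, 3.47, 3.73 and 3.76 with dexamethasone in wild type. Every knockout array lay below every wild-type array of the same treatment and time. With saline at 4 h the values were 2.06, 2.10 and 1.68 in knockout lungs, against 3.23, 2.78, 3.14 and 2.95 in wild type.

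Knockout minus wild type for Acot1 was -1.76 ± 0.20 (SE, adjusted p = 3.88e-06) with dexamethasone at 8 h, -1.42 ± 0.18 (3.01e-05) with dexamethasone at 4 h, -1.35 ± 0.20 (0.000225) with saline at 8 h and -1.08 ± 0.20 (0.000873) with saline at 4 h. Averaged over the 4 it was -1.40 (interval -1.60 to -1.20, 0.378 of the wild-type level, adjusted p = 3.19e-10). The saline difference at 4 h was -0.66 (adjusted p = 0.404) with the bright-to-dim ratio as a covariate. Dexamethasone raised Acot1 by 0.83 (adjusted p = 0.000793) in knockout at 8 h, and by 1.24 (0.000124) and 0.64 (0.00782) in wild type at 8 and 4 h, while the knockout value at 4 h was 0.29 (0.249). The responses of the genotypes were not shown to differ, at -0.41 (interval -0.99 to 0.16) at 8 h and -0.34 (-0.90 to 0.21) at 4 h. These ran from -0.57 to -0.16 at 8 h (the smallest without wild-type dexamethasone replicate 54) and from -0.54 (without knockout dexamethasone replicate 58) to -0.21 (without replicate 60) at 4 h when single arrays were left out. The knockout rise at 8 h was 0.48 (adjusted p = 0.135) with the bright-to-dim ratio as a covariate and 0.58 (adjusted p = 0.323) with the adipocyte sum.

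Acot2, the mitochondrial thioesterase, lies on chromosome 12 with Acot1 and is a close paralogue of it, so that a probe for either may take up some signal of the other. At 8 h its signal was -1.97, -2.35, -2.49 and -2.27 with dexamethasone in knockout lungs, against -2.60, -2.24, -2.25 and -2.40 with saline. In wild type at 8 h it was -1.35, -1.75 and -1.91 with dexamethasone, against -2.27, -2.38 and -2.31 with saline. The wild-type groups did not overlap and the knockout groups did. At 4 h it was -2.49, -2.13, -2.47 and -2.35 with dexamethasone in knockout lungs, against -2.03, -2.04 and -2.36 with saline. In wild type at 4 h it was -2.14, -2.20, -2.03 and -2.01 with dexamethasone, against -2.53, -2.49, -2.21 and -2.91 with saline. Here too only the wild-type groups were free of overlap.

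Acot2 rose by 0.65 ± 0.16 (SE, adjusted p = 0.00399) and 0.44 ± 0.14 (0.0138) in wild type at 8 and 4 h, and its knockout differences were 0.10 (adjusted p = 0.572) and -0.21 (0.272) at 8 and 4 h. The knockout response minus the wild-type response was -0.65 at 4 h (interval -1.07 to -0.24, adjusted p = 0.0314) and -0.55 at 8 h (-0.98 to -0.11, adjusted p = 0.113). It was the 1 member called lower in that comparison at 4 h, where 3.12% of all genes were called lower. This call was lost in 7 of the alternatives and in 6 of the 29 fits that left out 1 array (saline replicates 36 of wild type and 41 and 43 of knockout, dexamethasone replicates 51 and 52 of wild type and 57 of knockout), with values from -0.70 to -0.44 among those that lost it. With dexamethasone at 8 h Acot2 was lower in knockout lungs (-0.60, adjusted p = 0.021), a call lost without wild-type replicate 54 (-0.44, adjusted p = 0.125), wild-type replicate 55 (-0.64, 0.0573) or knockout replicate 63 (-0.53, 0.0561). It was also lost with slide as a fixed block (-0.58, 0.122), in a fit of the 2 groups alone (-0.60, 0.173), and with the adipocyte (-0.49, 0.24) or heart sum (-0.56, 0.069) as a covariate. The wild-type rise at 4 h was 0.32 (adjusted p = 0.077) without saline replicate 36. That at 8 h was 0.65 (adjusted p = 0.0589) in a fit of its 2 groups alone.

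Acadl, the long-chain acyl-CoA dehydrogenase, rose modestly and without overlap in all 4 dexamethasone comparisons. Its signal at 8 h was 2.04 to 2.43 with dexamethasone in knockout lungs, against 1.62 to 2.002 with saline, and 2.40 to 2.74 with dexamethasone in wild type, against 1.97 to 2.17 with saline. It rose by 0.40 and 0.41 in knockout at 8 and 4 h (adjusted p = 0.00378 and 0.00484) and by 0.45 and 0.55 in wild type at 8 and 4 h (adjusted p = 0.00874 and 0.000194). Both knockout calls were lost with quantile normalization, at 0.27 each (adjusted p = 0.0832 at 8 h and 0.11 at 4 h). They were also lost with normexp and then quantile normalization (0.21, 0.158 at 8 h and 0.27, 0.086 at 4 h). The deposited series table lost them too (0.23, 0.133 at 8 h and 0.29, 0.0774 at 4 h). The wild-type value at 8 h was 0.35 (adjusted p = 0.0657) without replicate 54 and 0.38 (adjusted p = 0.0559) without saline replicate 38. In a fit of its 2 groups alone it was 0.45 (adjusted p = 0.078). Averaged over treatments and times, Acadl was 0.22 lower in knockout (-0.22, adjusted p = 0.00718).

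Cpt1a, the gate of mitochondrial fatty acid import, did not pass the test in any dexamethasone comparison by its brighter probe. Its differences ran from -0.06 in wild type at 4 h to 0.08 in wild type at 8 h. In knockout at 4 h (-0.05) that probe was called lower with quantile normalization (-0.24, adjusted p = 0.0486), with normexp (-0.27, 0.0196) and in the deposited series table (-0.29, 0.0267). Means of the dimmer probe were lower with dexamethasone than with saline in knockout (-0.16 against 0.12 at 8 h, -0.31 against 0.01 at 4 h). In wild type they were higher (0.17 against -0.22 at 8 h, 0.01 against -0.20 at 4 h). Treated and saline arrays overlapped in each of these. The 2 probes also disagreed on genotype. By the brighter probe, the mean of 10 spots, Cpt1a was lower in knockout lungs with dexamethasone at 8 h (-0.39, adjusted p = 0.0146), with saline at 8 h (-0.32, 0.0246) and with saline at 4 h (-0.26, 0.0404), and averaged over the 4 groups (-0.31, 7.44e-05). Its group means there were 2.74 ± 0.09 (SD, n = 4) in treated knockout and 3.13 ± 0.17 (SD, n = 3) in treated wild-type lungs at 8 h. The dimmer probe gave -0.33 with dexamethasone at 8 h, 0.35 with saline at 8 h, 0.21 with saline at 4 h and -0.02 on average, none of them called. The call with dexamethasone at 8 h was lost without wild-type replicates 54 (-0.31) or 55 (-0.39), and that with saline at 8 h without replicates 37 (-0.35) or 38 (-0.26) of wild type or 46 of knockout (-0.31). The saline call at 4 h was lost without replicates 33 or 35 of wild type or 41, 43 or 44 of knockout (-0.30 to -0.19). The 2 probes went opposite ways in saline, and the direction of a Cpt1a genotype difference in saline is not settled by these arrays.

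**Figure D4:**
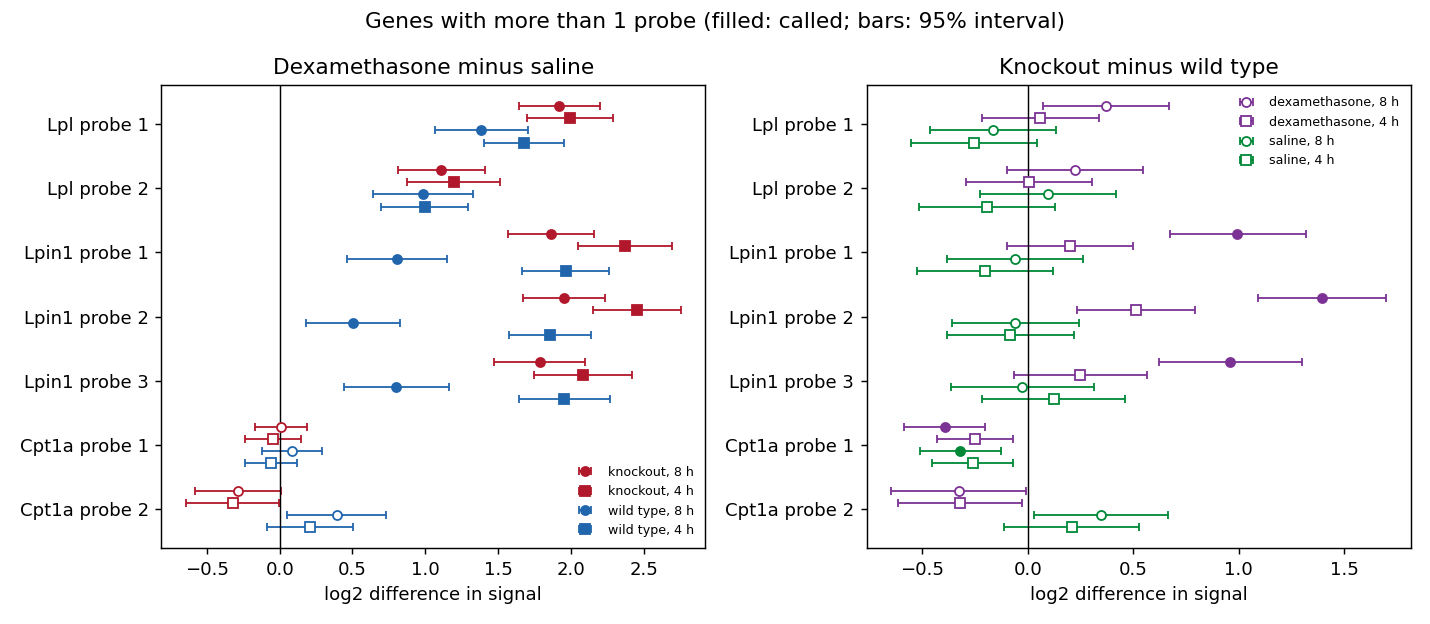
Log2 differences in signal (x axis) of each probe of the 3 genes with more than 1 probe, dexamethasone minus saline (left) and knockout minus wild type (right), with 95% intervals; filled symbols passed the threshold over all probes kept. The 3 Lpin1 probes agree on the knockout excess with dexamethasone at 8 h (0.99, 1.39 and 0.96), and the 2 Cpt1a probes lie on opposite sides of 0 in saline.

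Set side by side, the genotype comparisons called 1 of the 9 genes higher in knockout (Lpin1) and 3 lower (Cpt1a, Acot1, Acot2) with dexamethasone at 8 h, where 3.02% of all genes were called higher and 1.90% lower. With dexamethasone at 4 h 1 was called lower (Acot1), against 0.619% of all genes. With saline 3 were called lower (Angptl4, Cpt1a, Acot1) at each time, against 7.88% of all genes at 8 h and 18.6% at 4 h. Averaged over treatments and times, 1 was called higher (Lpin1) and 4 lower (Angptl4, Cpt1a, Acot1, Acadl), against 8.30% and 10.8% of all genes. The averaged Lpin1 call (0.23, adjusted p = 0.0351) was lost in 11 of the 29 fits that left out 1 array, with values of 0.20 to 0.23. The averaged Angptl4 call (-0.29) was lost with the bright-to-dim covariate (-0.15, adjusted p = 0.2) and quantile normalization (-0.22, 0.0514), and that of Acadl with quantile normalization (-0.19, 0.0504). The averaged Cpt1a value was -0.02 by its dimmer probe (adjusted p = 0.913). The median knockout-minus-wild-type difference of the 9 was -0.10 and -0.19 with dexamethasone (8 and 4 h) and -0.30 and -0.21 with saline (8 and 4 h), against 0.04, 0.04, -0.12 and -0.04 over all genes. The knockout and wild-type dexamethasone comparisons use different arrays, while the genotype comparisons share arrays with them.

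**Figure D5:**
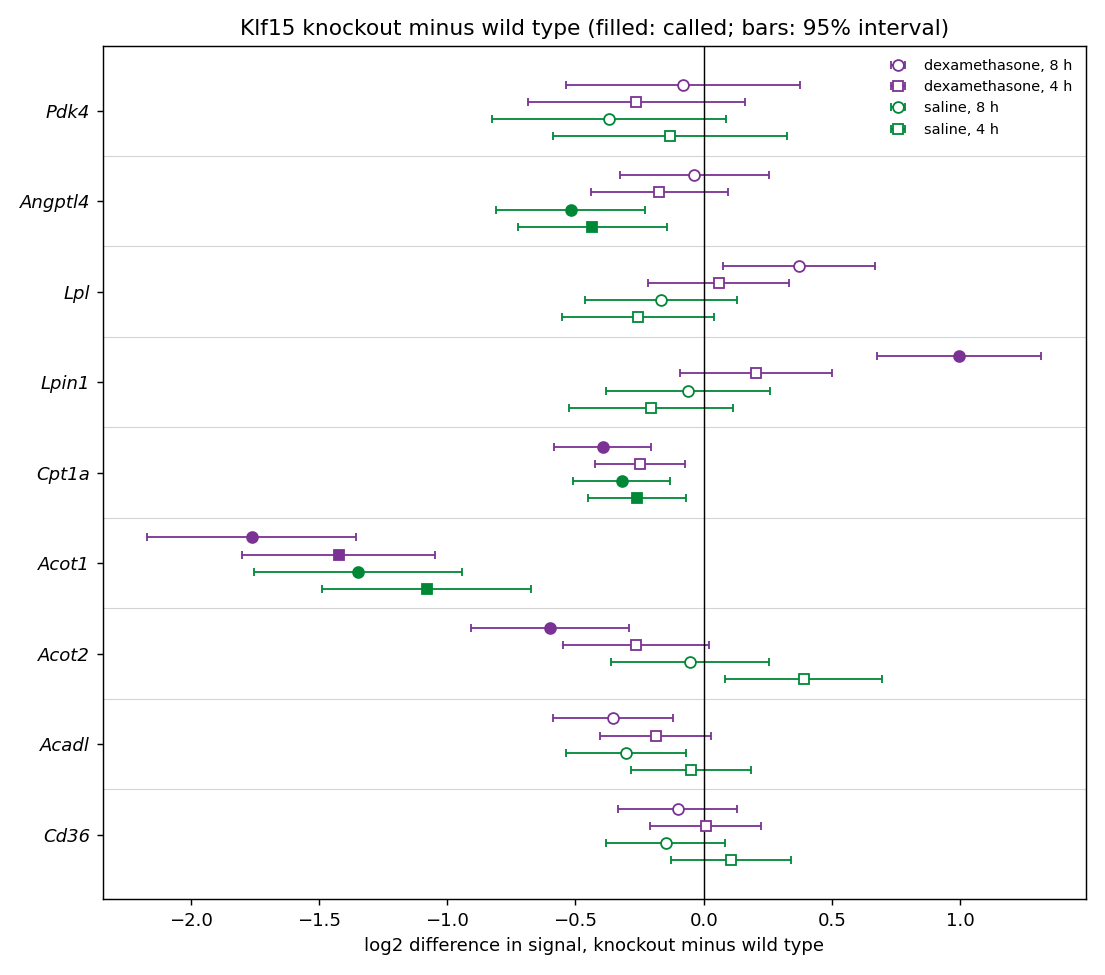
Log2 difference in signal, knockout minus wild type (x axis), for each gene with dexamethasone or saline at 8 and 4 h, with 95% intervals; filled symbols passed the adjusted threshold of 0.05. Acot1 lies between -1.76 and -1.08 in all 4 comparisons, and Lpin1 is called on the right of 0 with dexamethasone at 8 h (0.99).

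Without dexamethasone, 3 of the genes changed with time. In saline, averaged over genotypes, the 8 h level exceeded the 4 h level by 0.60 for Pdk4 (adjusted p = 0.0333), 0.68 for Angptl4 (0.000168) and 0.44 for Lpin1 (0.0238), where 2.04% of all genes were called higher. The Pdk4 call was lost when any of 9 arrays was left out (0.52 to 0.63: saline replicates 33, 34, 37, 38 and 39 of wild type and 43, 44, 47 and 48 of knockout). The Lpin1 call was lost without replicates 38 or 39 of wild type or 43, 44 or 45 of knockout (0.35 to 0.45), and the Angptl4 call held in all 29 such fits. The change of the dexamethasone difference from 4 to 8 h called 2 of the 9 genes lower in wild type (Pdk4 and Lpin1), where 3.11% of all genes were called lower, and 0 in knockout by limma, where 3.06% of all genes were called in either direction and 2 of the 9 had an unadjusted p under 0.05. In order of group mean, Lpin1 ran from treated knockout at 8 h (3.22) through treated knockout at 4 h (3.22), treated wild type at 4 h (3.01) and treated wild type at 8 h (2.23) to the 4 saline groups (1.42 and less). The first 3 of these overlapped and the fourth stood below them. Acot1 ran from treated wild type at 8 h (4.17) and at 4 h (3.66) through wild-type saline at 4 h (3.03) and at 8 h (2.93) to the 4 knockout groups (2.41 and less). The array values of wild-type saline at 8 h did not overlap those of treated knockout at 8 h, its neighbour in this order. Treated knockout at 4 h did overlap both wild-type saline groups. Its replicate 58 (2.8335) lay above wild-type saline replicates 39 at 8 h (2.8257) and 34 at 4 h (2.782).

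Over the 29 arrays, the log2 signals of Pdk4, Angptl4, Lpl and Lpin1 correlated with one another at Pearson r from 0.918 to 0.960, and Acadl with them at 0.640 to 0.825. Acot1 followed Cpt1a (r = 0.791) more closely than Pdk4 (0.451). These are descriptions of arrays that share treatment, genotype and scaling. The tested genes outside the lists with the most similar pattern over the 29 arrays were Stt3b (r = 0.980), Fbxo31 (0.978) and Trp53inp1 (0.976) for Pdk4, Timp3 (0.981), Sult1a1 (0.976) and Abcg2 (0.965) for Angptl4, Phyhd1 (0.988), Clca3a2 (0.987) and Scube1 (0.985) for Lpl, and Gpr179 (0.981), Ppp1r21 (0.981) and Ttc39c (0.980) for Lpin1. For Acot1 they were Aldh6a1 (0.955), Gstz1 (0.936) and Kyat3 (0.933), for Acadl Eci3 (0.937), Tpd52l1 (0.922) and Insr (0.922), for Cpt1a Lrtm2 (0.846), Braf (0.807) and Hic2 (0.806), for Cd36 Sh3bgrl (0.842), Slc39a14 (0.795) and Pabpc4 (0.779), and for Acot2 Snx30 (0.782), Pnrc1 (0.762) and Cdkn1b (0.750).

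Around Pdk4 in the pathway, the other kinases, phosphatases and subunits of pyruvate dehydrogenase were mostly not called: of 12 measured (13 listed), 2 rose with dexamethasone in knockout at 8 h, 2 in knockout at 4 h, 2 in wild type at 8 h and 3 in wild type at 4 h. Pdk3, another of the kinases, rose in all 4 comparisons, by 0.46 and 0.35 in knockout (8 and 4 h) and 0.41 and 0.39 in wild type (8 and 4 h). Of 27 glucose uptake and glycolysis genes, 11 were called higher and 6 lower in knockout at 8 h, and 9 and 5 in knockout at 4 h. In wild type, 2 were called higher and 4 lower at 8 h, and 6 and 6 at 4 h. The shares of all genes apply to this list, to that of pyruvate dehydrogenase and to the lists below. They are 24.9% higher and 17.7% lower in knockout at 8 h, and 24.7% and 17.8% in knockout at 4 h. In wild type they are 9.22% and 14.3% at 8 h, and 14.4% and 22.2% at 4 h. Near these shares lie the 5 of 27 lower in knockout at 4 h, both wild-type counts at 8 h and the 6 of 27 lower in wild type at 4 h. Pfkfb1, which sets the level of the glycolytic activator fructose bisphosphate, rose in all 4, by 0.78 and 1.39 in knockout (8 and 4 h) and 0.61 and 1.08 in wild type (8 and 4 h).

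Among partners of Lpl in lipolysis and fatty acid uptake, 11 of 23 measured rose and 4 fell with dexamethasone in knockout at 8 h, 8 rose and 4 fell in knockout at 4 h, 5 rose and 4 fell in wild type at 8 h, and 7 rose and 8 fell in wild type at 4 h. The 4 of 23 that fell in knockout at each time lie near the shares of all genes, 17.7% at 8 h and 17.8% at 4 h. The fatty acid transporter Slc27a3 fell in each, by 1.30 and 1.65 in knockout (8 and 4 h) and by 1.01 and 1.26 in wild type (8 and 4 h). Fabp4, a fatty acid carrier that is also one of the 9 adipocyte markers, rose by 2.23 and 0.80 in knockout (8 and 4 h) and by 0.99 and 1.20 in wild type (8 and 4 h). Gpihbp1, which holds Lpl at the capillary wall, was 0.57 higher in treated knockout than in treated wild-type lungs at 8 h (adjusted p = 0.0474) and 0.64 lower in saline-treated knockout than in saline-treated wild-type lungs at 4 h (-0.64, adjusted p = 0.00814). Endothelial markers moved too: of 12, 9 fell and 2 rose in knockout at 8 h, and 7 fell and 2 rose in knockout at 4 h. In wild type, 6 fell and 0 rose at 8 h, and 6 fell and 2 rose at 4 h. The sum of the 9 with a value on every array was 79.0 to 88.4 with dexamethasone in knockout at 8 h, against 110 to 127 with saline. It was 81.9 to 85.1 against 114 to 120 in knockout at 4 h. In wild type it was 86.1 to 92.1 against 102 to 125 at 8 h, and 81.6 to 90.4 against 121 to 135 at 4 h. The part of endothelial markers in the Lpl result was not tested.

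The relatives of Lpin1 also rose: Lpin2 by 0.58 and 1.14 in knockout (8 and 4 h) and by 0.42 and 1.39 in wild type (8 and 4 h), and Lpin3 by 0.39 to 0.49 in the 4 comparisons. Lpin2 shared the smaller response at 8 h in wild type (-0.97 for 8 minus 4 h, adjusted p = 0.000706). Of 12 lipins and triglyceride synthesis genes, 5 rose and 1 fell in knockout at 8 h, and 2 rose and 1 fell in wild type at 8 h. Of the other 9 acyl-CoA thioesterases measured (11 listed), 3 rose with dexamethasone in knockout at each time, among them Acot13 by 0.53 and 0.41 (8 and 4 h). None of the 9 was called higher in wild type, where Acot7 (-0.66) and Acot10 (-0.42) fell at 4 h. The 3 of 9 that rose in knockout lie near the shares of all genes, 24.9% at 8 h and 24.7% at 4 h. So do the 2 of 9 that fell in wild type at 4 h, against 22.2%. Acot11 was lower in knockout averaged over treatments and times (-0.45, adjusted p = 3.71e-06).

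Mitochondrial fatty acid oxidation genes other than Cpt1a and Acadl split: 12 of 29 measured rose and 5 fell in knockout at 8 h, 8 rose and 7 fell in knockout at 4 h, 5 rose and 3 fell in wild type at 8 h, and 4 rose and 2 fell in wild type at 4 h. The 5 of 29 that fell in knockout at 8 h and the 8 of 29 that rose in knockout at 4 h lie near the shares of all genes, 17.7% and 24.7%. Eci2, an enoyl-CoA isomerase, rose in all 4, by 0.91 and 1.10 in knockout (8 and 4 h) and 0.50 and 0.77 in wild type (8 and 4 h). Acsl5, which activates fatty acids, fell in all 4, by 0.72 and 0.72 in knockout (8 and 4 h) and 0.49 and 0.35 in wild type (8 and 4 h). Echs1, the enoyl-CoA hydratase of the same spiral, was lower in knockout in each treatment and time, as Acot1 was, with a mean difference of -0.54 (adjusted p = 1.07e-10). Of 16 peroxisomal oxidation genes, 5 rose and 4 fell in knockout at 8 h, 7 rose and 3 fell in knockout at 4 h, 2 rose and 2 fell in wild type at 8 h, and 4 rose and 5 fell in wild type at 4 h. Pex11a, which drives peroxisome proliferation, rose by 1.10 and 2.10 in knockout (8 and 4 h) and by 1.37 in wild type at 4 h (0.09 and not called at 8 h), and its response at 8 h was larger in knockout than in wild type by 1.01 (adjusted p = 0.00791).

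Of 19 PPAR, coactivator and energy sensor genes, 8 rose and 0 fell in knockout at 8 h, 9 rose and 2 fell in knockout at 4 h, 4 rose and 0 fell in wild type at 8 h, and 5 rose and 2 fell in wild type at 4 h. Ppara, the nuclear receptor that drives fatty acid oxidation genes, rose in all 4, by 0.94 and 0.67 in knockout (8 and 4 h) and 0.66 and 1.09 in wild type (8 and 4 h). Its level was lower in knockout throughout, by -0.46 and -0.97 with dexamethasone (8 and 4 h) and -0.74 and -0.55 with saline (8 and 4 h), and by -0.68 on average (adjusted p = 4.01e-10). Foxo1, a transcription factor of the fasting response, rose by 0.56 and 0.70 in knockout (8 and 4 h) and 0.35 and 0.88 in wild type (8 and 4 h). Of 8 ketone body and uncoupling genes, 5 rose in knockout at each time, and 1 rose and 1 fell in wild type at 8 h and 3 rose and 1 fell at 4 h. Among them, Ucp2, a mitochondrial carrier of the uncoupling protein family, rose by 0.67 and 1.18 in knockout (8 and 4 h) and 1.37 in wild type at 4 h, with 0.34 (not called) in wild type at 8 h.

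Slide was the technical grouping that the files give. With slide as a fixed or a random block the counts of members called stayed at 6 and 5 in knockout (8 and 4 h) and 7 and 7 in wild type (8 and 4 h). On single slides that held both treatments, the called genes kept their sign in 12 of 12 values for knockout at 8 h (2 slides), 5 of 5 for knockout at 4 h (1 slide), 7 of 7 for wild type at 8 h (1 slide) and 14 of 14 for wild type at 4 h (2 slides). For genotype, the block changed calls. With slide as a fixed block 3 genes were called with dexamethasone at 8 h, where Acot2 was lost (-0.58, adjusted p = 0.122), and 2 with saline at 4 h. There Angptl4 was lost with the fixed (-0.24, adjusted p = 0.303) and the random block (-0.33, 0.0878), Cpt1a was lost with the fixed block (-0.22, 0.148), and Acadl was gained with it (-0.32, 0.00662, against -0.05 without it). With saline at 8 h Acadl was gained with either block (-0.30), for 4 genes called. Between genotypes, 1 slide held both saline groups of 8 h and kept the sign in 3 of 3, and no slide held both groups of the other genotype comparisons.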

How the data were processed

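Lung RNA was labelled with Cy3 and hybridised to Agilent whole mouse genome 4x44K arrays, 1 sample per array, per the labels' protocols. The authors' scanner files hold intensity per spot, deposited after background subtraction by Agilent Feature Extraction (version 10.7.3.1 per the file headers, 10.6 per the submitters' processing notes). A deposited series table holds log2 values of the same arrays, with column medians of 8.28 to 8.30; how it was normalised is not stated, its order within an array follows the median signal, and it served as an alternative alone.

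Log2 of the processed intensity was taken relative to the 75th percentile of each array, after outlier spots (0.101 to 0.908% per array) were left out and spots of a probe averaged. Before scaling, that percentile was 2072 ± 238 with dexamethasone (SD, n = 15) and 2719 ± 381 with saline (SD, n = 14). Probes were kept where 3 or more arrays of any group had them well above background (33931 of 41174). Accessions were paired with 1 gene for 24844 probes through RefSeq (GRCm38.p6), and the brightest kept probe stood for a gene. Means of the 8 groups were fitted over 29 arrays with limma 3.58.1 (R 4.3.3), with 14 comparisons, Benjamini-Hochberg adjustment over 15350 genes within each and a threshold of 0.05; 95% intervals are unadjusted. The number of arrays limits the precision. The steps were tested on simulated data. Alternatives were 14 other settings, the removal of each array in turn and 2 covariates added after the data were seen. The 9 genes and the pathway and marker lists were chosen with earlier results of these data known. In each list the genes named were those with the lowest p among its called members, up to 3 per dexamethasone comparison and 2 per other comparison, and values of the same genes in other comparisons are given for some of them. Genes with a similar pattern are the 3 of highest Pearson r with each member.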

Additional observations from a re-analysis of the deposited data

Results flagged for a closer look

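Dexamethasone responses differed between times or genotypes in 4 member results. The Pdk4 response in wild type was smaller at 8 h than at 4 h by the test of the difference (-1.17), and so was that of Lpin1 (-1.16). Both sides moved from 4 to 8 h. Wild-type Pdk4 means went from -1.11 to -0.40 with saline and from 2.23 to 1.78 with dexamethasone. Those of Lpin1 went from 1.048 to 1.417 and from 3.014 to 2.225. The Lpin1 response at 8 h was larger in knockout than in wild type (1.06). The Acot2 response at 4 h was smaller in knockout than in wild type (-0.65). No array stood far from the others of its group of 4 in any of the 45 sets of values examined by Dixon's criterion, and groups of 3 were not examined.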

How the results depend on the processing

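Of 5670 values of the 9 genes under other settings, 5517 kept their side of the threshold and, where called, their direction, 126 lost a call, 24 gained one and 3 called values reversed. Of the 5517, 149 changed sign without being called. The reversed ones were Cpt1a, knockout minus wild type in saline, at 8 h with the mean of its probes (0.014) or the dimmest probe (0.35) and at 4 h with the dimmest probe (0.21). No Lpl call changed. Fitting only the groups compared moved the number of genes called to 4 for dexamethasone in wild type at 8 h, 1 for genotype with dexamethasone at 8 h, 1 with saline at 8 h, 0 for the genotype difference of responses at 8 h and 0 at 4 h, and 1 for the response at 8 minus 4 h in wild type. Quantile normalization gave 1 and 1 for genotype with saline at 8 and 4 h, 3 for its average and 0 for the response difference at 4 h. Normexp and the deposited table each gave 1, 1 and 0 for genotype with saline at 8 h, at 4 h and the response difference at 4 h. The bright-to-dim covariate gave 0 for genotype with saline at 4 h, 3 for its average and 0 for the response differences at 8 and 4 h. The share of spots well above background as a covariate gave 1 for genotype with saline at 4 h, and median scaling and slide as a fixed block gave 0 for the response difference at 4 h. The adipocyte covariate gave 2 for genotype with dexamethasone at 8 h, 1 with saline at 8 h and 0 for the response difference at 8 h. The cause was not tested. Where a count of 0 is given, limma was the test.

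Leaving out 1 array at a time gave 2 to 5 genes called for genotype with dexamethasone at 8 h (2 without wild-type replicates 54 or 55), 1 to 4 with saline at 8 h (1 without wild-type replicate 38), 1 to 4 with saline at 4 h (1 without knockout replicate 43) and 0 to 1 for the response difference at 4 h. It gave 1 to 3 for the response at 8 minus 4 h in wild type and 1 to 3 for saline at 8 minus 4 h. The dexamethasone counts stayed at 6 and 5 in knockout (8 and 4 h) and within 6 to 7 and 6 to 8 in wild type (8 and 4 h). Other scalings moved the median of all genes by at most 0.114. No paired analysis was possible because the groups share no replicate numbers.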
